A study of Trametes coccinea with 9 samples.

Results

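The white-rot basidiomycete *Pycnoporus coccineus* carries many cytochrome P450 monooxygenase genes, and transcripts of 5 of them, numbered 1297918, 1362558, 1362447, 1410653 and 1461314 in the strain's gene catalogue, were followed across cultures on maltose, pine and aspen. The genes were chosen by their transcript levels on wood relative to maltose in these same libraries, so those differences are given as a description, without a test. They are 5 of the 12690 genes counted, and 5 of the 61 genes in the table of P450 transcripts that the study drew up from these samples. All 5 passed the filter on low counts, which kept 11130 genes. The KOG class in that table is CYP4/CYP19/CYP26 for 4 of the 5 and CYP2 for 1410653. These classes are broad groups of eukaryotic orthologues and do not give a fungal P450 family or a substrate.

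Cytochrome P450 monooxygenases are heme proteins that insert 1 atom of molecular oxygen into a substrate and reduce the other to water. The electrons usually come from NADPH through a reductase in the membrane of the endoplasmic reticulum. White-rot fungi carry large P450 families, and members of these families have been implicated in the oxidation of lignin fragments, resin compounds and other aromatic molecules inside the cell, as well as in the synthesis of sterols and secondary metabolites. The substrates of the 5 enzymes are not given in the sources used here.

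Mycelium was grown in shaken liquid culture at 30 °C and harvested on day 3, with 3 cultures per group and 1 monokaryotic strain in every group. Maltose cultures received 20 g/l maltose. Pine cultures received 15 g/l of ground and sifted pine and 2.5 g/l maltose. Aspen cultures received 15 g/l of Wiley-milled aspen and maltose, at a dose printed incompletely in the aspen label and described in the methods as the same for both woods. The presence of wood and the lower maltose supply cannot be told apart, nor can wood species, milling and bark, since the pine powder held all parts of the trunk and both powders were unextracted. Each library held 28399534 to 38654866 counts from sequenced poly(A) RNA, and no library was a repeat of another. In bulk RNA, more transcript per cell and more cells that make the transcript cannot be told apart. Levels are given as CPM, the counts relative to library size as edgeR gives them after TMM scaling, with the SD over 3 cultures. A log2 fold change is given with its standard error (SE), derived from edgeR's quasi-likelihood test, and its adjusted p is by the method of Benjamini-Hochberg over the 11130 genes, with calls made under 0.05.

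Transcripts of 1297918, 1362558 and 1362447 were more abundant on both woods than on maltose, and more abundant on pine than on aspen. Transcripts of 1410653 were less abundant on pine and somewhat more abundant on aspen than on maltose. Those of 1461314 were scarce on both woods.

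Gene 1297918 had the highest mean CPM of the 61 P450 genes on pine. Its transcript stood at 8.12, 9.51 and 15.2 CPM in the maltose cultures, at 3850, 1762 and 1861 CPM in the pine cultures and at 329, 307 and 334 CPM in the aspen cultures. The 3 groups did not overlap, and the lowest pine library was 5.28 times the highest aspen library. Separation from maltose was common in the P450 table. Of its other 56 genes, 48 on pine and 51 on aspen were called in either direction without overlap. The share over all genes was not computed. The mean level was 10.9 ± 3.76 CPM on maltose, 2491 ± 1178 CPM on pine and 323 ± 14.1 CPM on aspen (SD, n = 3). The transcript was thus 227-fold more abundant on pine (log2 fold change 7.83, SE 0.43) and 29.5-fold more abundant on aspen (4.88, SE 0.37) than on maltose. Its log2 fold change on pine ranked 12th of the 11130 genes. Pine replicate 1 held 133565 counts of this gene, and pine replicates 2 and 3 held 51532 and 46315.

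Gene 1362558 followed the same course from a higher level on maltose. Its transcript stood at 17.1, 17.2 and 19.0 CPM on maltose, at 2345, 1313 and 1964 CPM on pine and at 288, 333 and 326 CPM on aspen. The groups were again separate, and the mean on maltose was 17.8 ± 1.11 CPM (SD, n = 3). Mean levels of 1874 ± 522 CPM on pine and 316 ± 24.0 CPM on aspen were 105-fold (log2 fold change 6.72, SE 0.30) and 17.8-fold (4.15, SE 0.26) above maltose. The aspen fold change moved to 4.43 when the length to which reads were trimmed was added to the model.

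Gene 1362447 was barely counted on maltose. Its counts there were 44, 30 and 74, or 1.30, 0.830 and 1.95 CPM. The pine cultures held 190, 168 and 177 CPM and the aspen cultures 21.0, 39.8 and 20.1 CPM. All groups were separate, and aspen replicate 2 stood well above the other aspen cultures. The means were 1.36 ± 0.561 CPM on maltose, 178 ± 11.1 CPM on pine and 26.9 ± 11.1 CPM on aspen (SD, n = 3). Relative to maltose the transcript was 130-fold more abundant on pine (log2 fold change 7.03, SE 0.39) and 19.7-fold on aspen (4.30, SE 0.35), with a denominator of few counts.

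Gene 1410653, the one CYP2-class gene of the 5, had low levels in every culture. Its transcript stood at 3.79, 4.51 and 4.47 CPM on maltose, at 1.61, 1.37 and 0.804 CPM on pine and at 7.29, 7.15 and 7.69 CPM on aspen. No groups overlapped, with pine lowest, maltose between and aspen highest. The level was 3.34-fold lower on pine (log2 fold change −1.74, SE 0.28) and 1.73-fold higher on aspen (0.79, SE 0.26) than on maltose. The counts behind the pine values were 56, 40 and 20.

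Gene 1461314 was transcribed on maltose and barely detected on wood. Its transcript stood at 9.66, 10.5 and 13.9 CPM on maltose, at 0.865, 0.410 and 0.643 CPM on pine and at 1.80, 1.06 and 0.829 CPM on aspen. Both woods lay below every maltose culture, while the pine and aspen values overlapped. The level was 17.5-fold lower on pine (log2 fold change −4.13, SE 0.38) and 9.19-fold lower on aspen (−3.20, SE 0.35). On pine this was the 81st lowest log2 fold change of the 11130 genes and the lowest of the 61 P450 genes. The pine libraries held 30, 12 and 16 counts and the aspen libraries 63, 38 and 28.

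**Figure D1:**
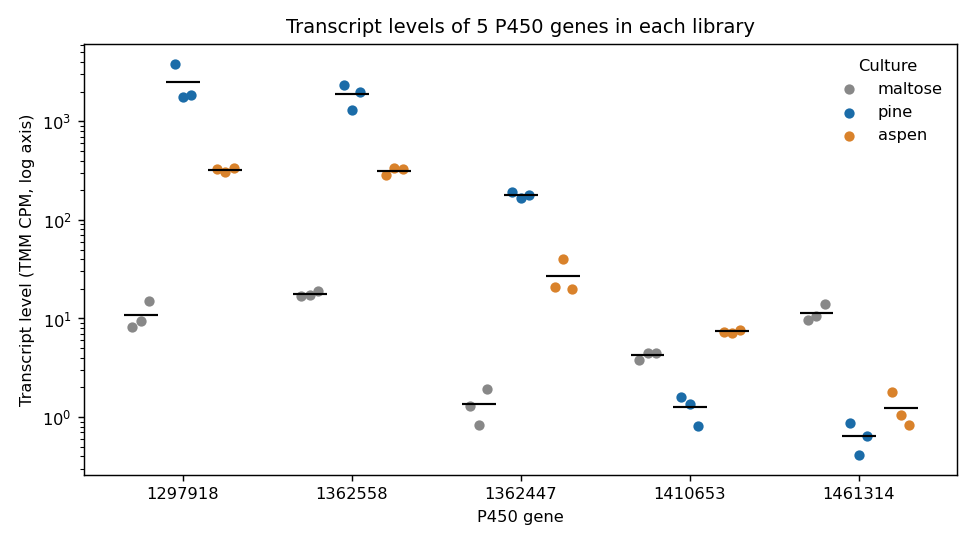
Transcript levels of the 5 P450 genes (TMM CPM, log axis), with a point for each library and a black bar at the mean of 3 cultures on maltose (grey), pine (blue) and aspen (orange). For 1297918, 1362558 and 1362447 all pine points lie above all aspen points and all aspen points above all maltose points, and for 1461314 the pine points, from 0.410 to 0.865 CPM, overlap the aspen points.

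The direct comparison of the woods was not named in the choice of the genes, but it uses the same wood libraries, and its p-values are not independent evidence for the 5. Transcripts of 1297918 were 7.71-fold (log2 fold change 2.95, SE 0.34, edgeR adjusted p = 0.000135), of 1362558 5.93-fold (2.57, SE 0.24, adjusted p = 3.04e-05) and of 1362447 6.62-fold (2.73, SE 0.31, adjusted p = 0.0001216) higher on pine than on aspen. Each of the 3 was higher in every pine library than in every aspen library. Of the other 56 P450 genes, 24 were likewise called between the woods without overlap, in either direction. The share of all genes without overlap between the woods was not computed. Transcripts of 1410653 were 5.78-fold lower on pine than on aspen (−2.53, SE 0.29, adjusted p = 0.0001115), again with no overlap. For 1461314 the difference was −0.93 (SE 0.37, adjusted p = 0.07796) and was not called. Thus 3 of the 5 were called higher on pine, 1 lower and 1 neither way, where 15.2% of all genes tested were called higher and 15.1% lower. Among the 61 P450 genes, 1297918, 1362447 and 1362558 had the largest and 1410653 the smallest log2 fold change between pine and aspen. The test of 1461314 turned on 1 culture: without pine replicate 1 the difference was −1.23 (edgeR adjusted p = 0.04069).

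Levels of different genes were compared per kb of gene span, which runs from 2357 to 2553 bases in the 5 genes and includes introns. On maltose 1362558 stood highest at 6.97 to 7.78 CPM per kb. Gene 1461314 (3.78 to 5.44) and gene 1297918 (3.27 to 6.12) followed with overlapping ranges, then 1410653 (1.61 to 1.91) and 1362447 (0.341 to 0.801). The most abundant gene on pine and the gene nearly absent from wood thus did not differ on maltose beyond their spread. On pine 1297918 (710 to 1551 CPM per kb) and 1362558 (537 to 958) overlapped and stood above 1362447 (69.1 to 78.2), with 1410653 (0.341 to 0.685) and 1461314 (0.161 to 0.339) far below. On aspen 1297918 and 1362558 overlapped again, at 124 to 135 and 118 to 136 CPM per kb. Gene 1362447 (8.26 to 16.4) lay above 1410653 (3.03 to 3.26), which lay above 1461314 (0.325 to 0.706). By this measure 1297918 ranked between 55th and 151st and 1362558 between 104th and 223rd of the 11130 genes in the pine libraries.

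The 2 most abundant genes did not keep a fixed ratio. Counts of 1297918 were 0.476 to 0.798 times those of 1362558 in the maltose libraries, 0.922 to 1.14 times in the aspen libraries and 0.948 to 1.64 times in the pine libraries. The ratio, which needs no scaling between libraries, was lower in every maltose library than in any wood library, and its pine and aspen ranges overlapped.

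The spread between cultures of 1 group differed from gene to gene, and some cultures stood highest for most or all of the 5 genes. The SD of log2 CPM of 1297918 was 0.63 on pine and 0.06 on aspen, where the median over all genes tested was 0.35 and 0.22. For 1362447 the order was turned, with an SD of 0.09 on pine and 0.55 on aspen. The SD of 1362447 on pine was smaller than that of all but 4.66% of the genes tested, and its SD on aspen was larger than that of 88.5% of them. Gene 1362558 spread by 0.43 on pine, 0.11 on aspen and 0.09 on maltose. Gene 1410653 spread by 0.05 on aspen and 0.51 on pine, and 1461314 by 0.51 on pine and 0.56 on aspen, at counts of 12 to 63. On maltose, replicate 3 was the highest culture for 1297918, 1362558, 1362447 and 1461314. On pine, replicate 1 was the highest culture for all 5 genes. How far the spread belongs to the library or to the gene was not tested.

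The 3 wood-abundant genes took a large part of the counts on the 61 P450 genes on pine. The table does not hold every P450 gene of the genome, so these are shares of the listed genes and not of all P450 RNA. Counts on 1297918, 1362558 and 1362447 together were 0.707% ± 0.189 of the counts on the 61 P450 genes on maltose, 41.8% ± 7.22 on pine and 9.57% ± 0.611 on aspen (SD, n = 3). The lowest pine library (34.3%) was above the highest aspen library (10.1%), which was above the highest maltose library (0.925%). Counts on 1297918 and 1362558 gave nearly all of this, at 40.1% ± 7.37 on pine. The 61 P450 genes together took 0.476% ± 0.0203 of the library on maltose, 0.931% ± 0.214 on pine and 0.725% ± 0.0248 on aspen. Without the 5 genes described here, the remaining P450 share was 0.471% ± 0.0188 on maltose, 0.533% ± 0.0651 on pine and 0.655% ± 0.0260 on aspen. With the 5 genes every pine library had a larger P450 share than every aspen library, and without them every pine library had a smaller one. The most counted P450 genes of every pine library were 1297918 and 1362558, whereas 1469297 led in every aspen library, and 1361709 or 1416283 in the maltose libraries.

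**Figure D2:**
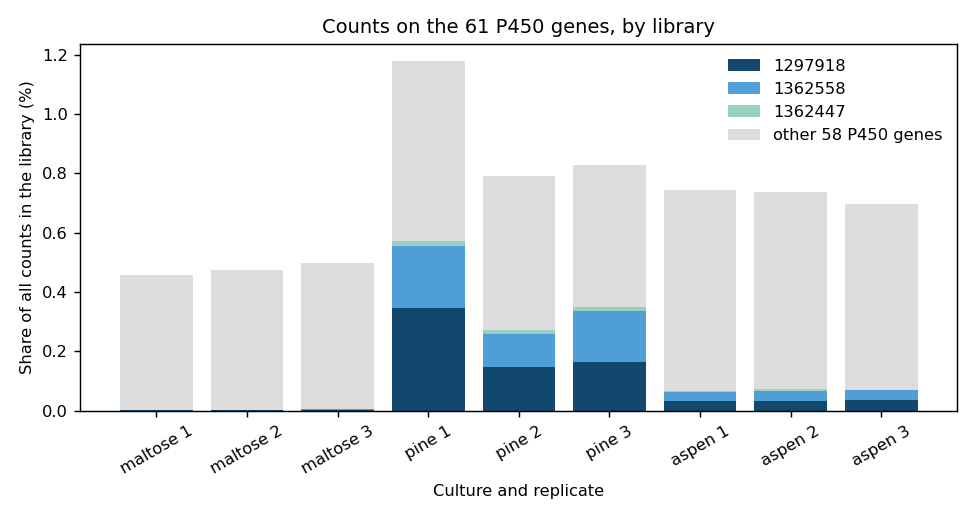
Share of all counts in each library (%, bars from 0) that fell on the 61 P450 genes, divided into 1297918, 1362558, 1362447 and all others, for the 9 cultures. The coloured parts are 34.3% to 48.7% of the bar in the pine libraries and at most 10.1% in the aspen libraries.

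The other 56 P450 genes of the table moved in both directions. The table was drawn from these samples, so its counts are not independent evidence, and both wood comparisons share the maltose libraries. On pine 31 of the 56 were called higher and 17 lower than on maltose, against 29.1% and 28.8% of all genes tested, with a median log2 fold change of 1.06 against −0.03 over all genes. On aspen 32 were called higher and 20 lower, against 26.3% and 24.9%, with a median of 0.91 against −0.02. Between the woods 12 were called higher on pine and 14 lower, against 15.2% and 15.1% of all genes tested. The median was 0.03 against −0.05, and 30 were not called. The log2 fold changes between the woods ran from −2.26 to 1.90 over these 56 genes.

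The largest log2 fold changes on pine after the 3 genes above were those of 1468151 (5.05, from 18.3 CPM on maltose to 605 CPM on pine), 1435960 (4.32) and 1471371 (4.30). On aspen 1463698 (5.09, from 0.835 to 28.5 CPM), 1471371 (4.74) and 1468151 (4.64) led, so that 1297918 ranked 2nd of the 61 on aspen, 1362447 5th and 1362558 6th. The transcript of 1468151 reached 456 CPM on aspen, and its difference between the woods of 0.41 was not called (edgeR adjusted p = 0.137). On the low side, 1461855 was called lower on both woods (−2.71 on pine and −3.38 on aspen), as was 1439865 (−2.54 and −2.47). So was 1414039 (−2.25 and −2.52), and 1381215 stood at −2.54 on pine and −0.54 on aspen. On aspen the fold change of 1461855 thus lay within the SE of that of 1461314 (−3.20, SE 0.35).

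Between the woods, 1468281 (log2 fold change 1.90, edgeR adjusted p = 0.00197), 1438328 (1.74, adjusted p = 0.00063) and 1439874 (1.60, adjusted p = 0.00513) led the other P450 genes on pine. Gene 1438328 stood at 686 ± 210 CPM on pine and 205 ± 9.30 CPM on aspen, whereas 1468281 was 1.90 higher on pine only relative to a low aspen level of 4.70 ± 1.71 CPM. On the aspen side stood 1362757 (−2.26, adjusted p = 0.00124), 1381215 (−2.003, adjusted p = 0.000588) and 1416283 (−1.30, adjusted p = 0.000923). Of the 27 CYP2-class genes, 1410653 included, 2 were called higher on pine than on aspen and 8 lower. Of the 27 genes of the class CYP4/CYP19/CYP26, which holds the other 4 genes described here, 11 were called higher on pine, 3 of them the genes described here, and 6 lower. Over all genes these calls were 15.2% and 15.1%, and the difference between the classes was not tested.

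**Figure D3:**
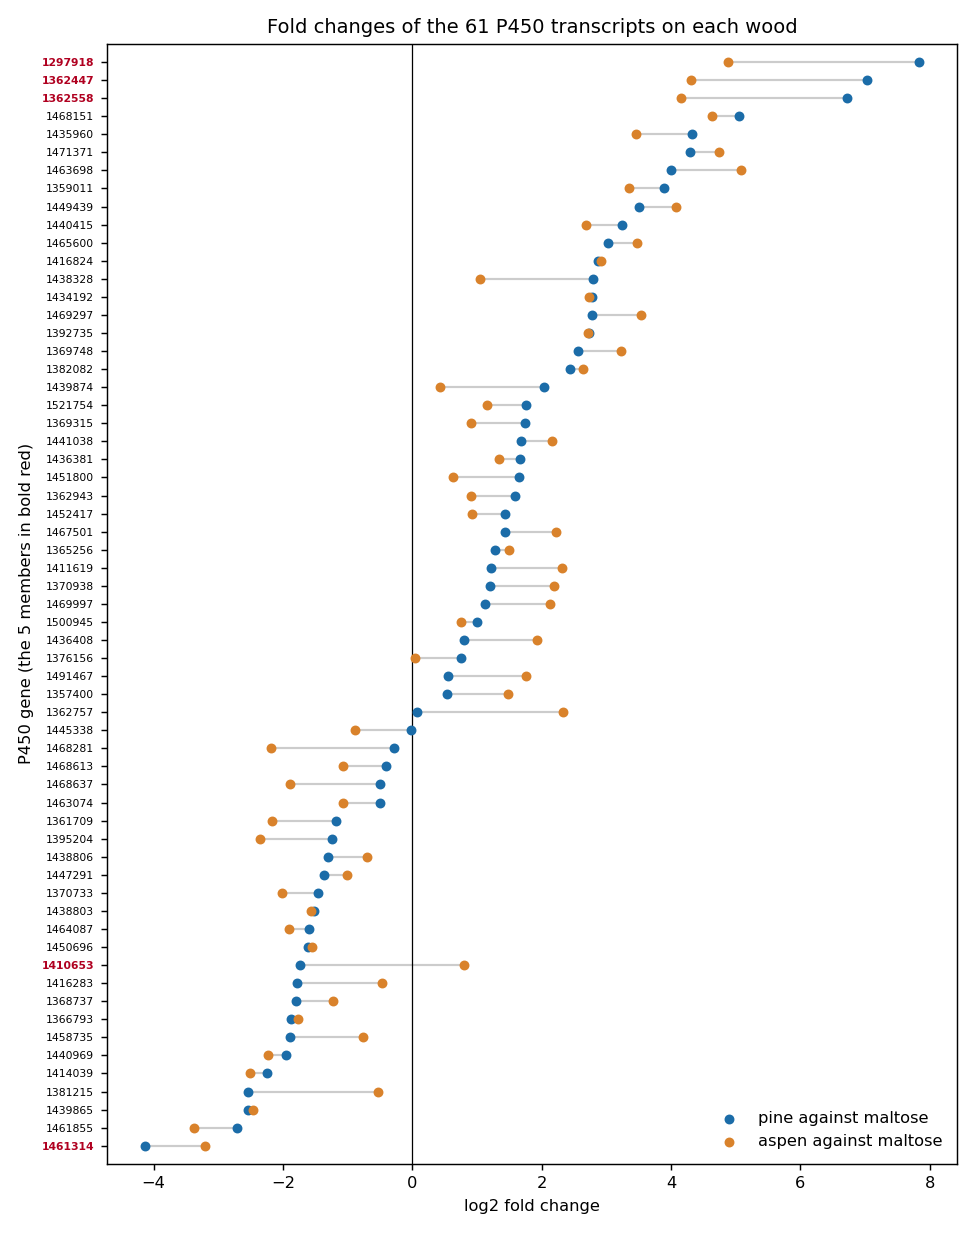
Log2 fold change on pine (blue) and on aspen (orange) against maltose for each of the 61 P450 genes, ordered by the value on pine, with the 5 genes described here in bold red. The 3 genes at the top lie at 6.72 to 7.83 on pine and 4.15 to 4.88 on aspen, and 1410653 has its points on opposite sides of 0.

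Positions were read from the annotation of assembly Pycco1, which names no scaffolds in the table used here, so only the order of genes and the distances are given. Genes 1362558 and 1297918 are near neighbours, 6.08 kb apart with 2 genes between them. The genes between had far smaller fold changes. Gene 1432957 stood at 0.370 CPM on maltose and 0.370 CPM on pine, and 1423674 was called higher on both woods, at 4.30 CPM on maltose, 8.44 CPM on pine (log2 fold change 0.97, edgeR adjusted p = 0.0148) and 7.32 CPM on aspen (0.77, adjusted p = 0.0492). On the far side of 1297918, after a gap of 1110 bases, lies 1362859, a glucose-methanol-choline oxidoreductase of family AA3_2, a family that holds aryl-alcohol oxidases and glucose oxidases. Its transcript rose from 3.52 ± 0.525 CPM on maltose to 23.8 ± 9.49 CPM on pine (2.76, SE 0.29) and 11.1 ± 2.18 CPM on aspen (1.66). On the far side of 1362558 lies 1362523, a gene of unknown function with a predicted signal peptide, whose transcript fell from 7.35 to 1.14 CPM on pine (−2.68, SE 0.29) and to 3.62 CPM on aspen (−1.02).

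The P450 gene next in that order, 1362757, lies 17.8 kb past 1297918 with 7 genes between, and had the opposite preference. It stood at 36.0 ± 0.546 CPM on maltose, 37.7 ± 21.8 CPM on pine and 181 ± 84.1 CPM on aspen. On pine the difference from maltose was 0.07 (edgeR adjusted p = 0.881), and on aspen it was 2.33. Thus 3 P450 genes of 1 stretch comprised 2 that were highest on pine and 1 that was highest on aspen.

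Genes 1362447, 1410653 and 1461314 have no other gene of the P450 table in their stretch of the annotation, and none of the 5 genes overlaps another gene. Of the 4 nearest genes around 1362447, 3 were called lower on pine and 1 on aspen, where 28.8% and 24.9% of all genes were, with log2 fold changes from −0.92 to −0.57 on pine and from −2.53 to 0.01 on aspen. Of the 4 nearest genes around 1410653, 1 was called higher and 1 lower on each wood, with log2 fold changes from −0.88 to 2.49 on pine and from −1.57 to 2.62 on aspen. One of them is 1467686, of unknown function with a predicted signal peptide, at 4.36 CPM on maltose and 3.12 CPM on pine (log2 fold change −0.48, edgeR adjusted p = 0.181). Next to 1461314 lies 1447413, a gene without a family in the sources, whose transcript fell from 861 ± 94.2 CPM on maltose to 38.6 ± 29.6 CPM on pine (−4.48, SE 0.50) and 30.1 ± 11.5 CPM on aspen (−4.84). The next gene on the same side, 1439226, of unknown function, also fell (−1.85 and −1.33), whereas 1375035 on the other side, likewise of unknown function, rose (1.28 and 1.504).

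**Figure D4:**
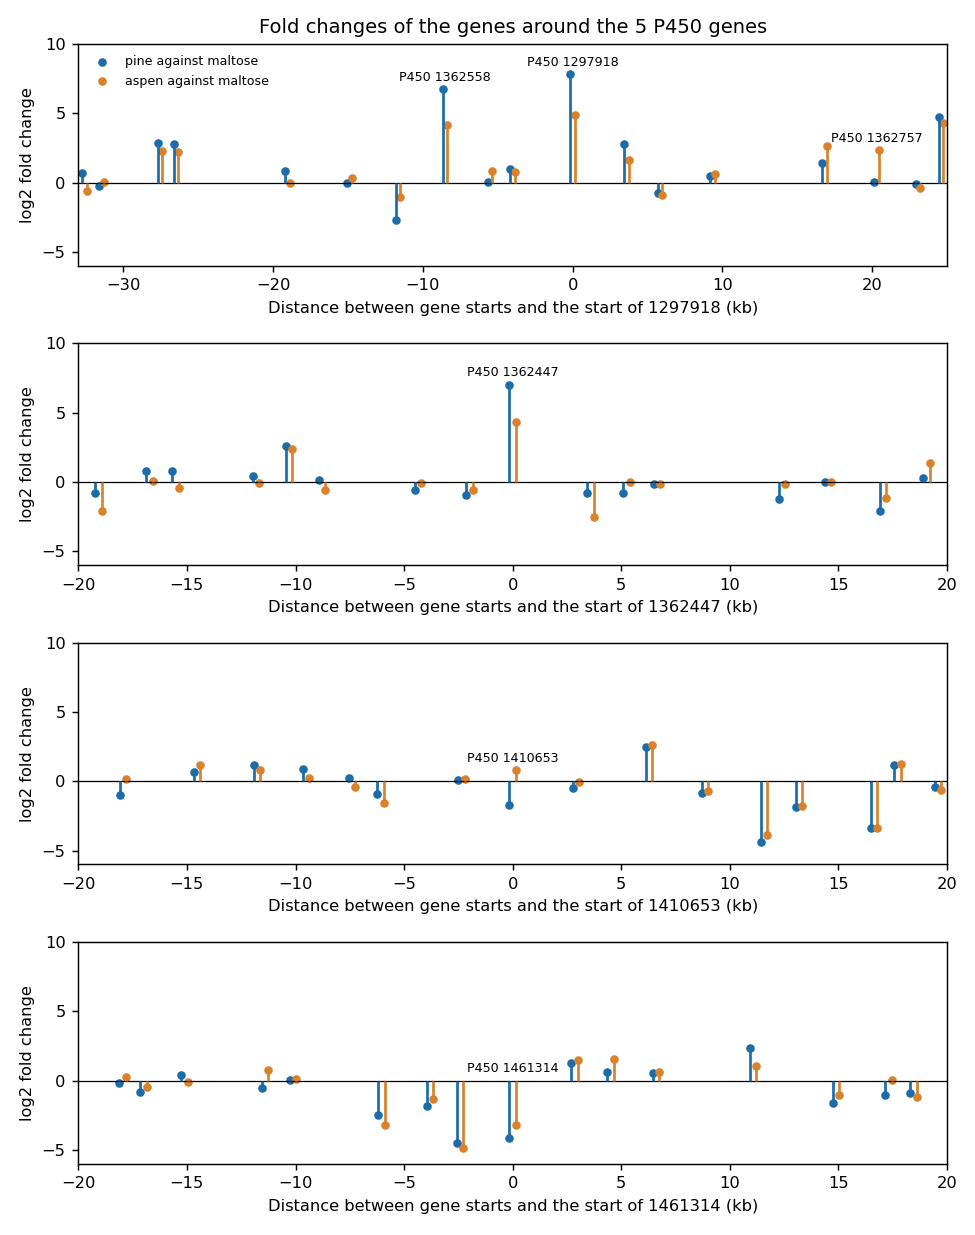
Log2 fold change on pine (blue) and aspen (orange) against maltose of genes around 1297918, 1362447, 1410653 and 1461314, by the distance of their starts in kb. Around 1297918 the tallest pine value besides its own is the 6.72 of 1362558, and next to 1461314 a neighbouring gene lies lower than the P450 gene itself, at −4.48 on pine and −4.84 on aspen.

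Likeness of pattern was measured as the root mean square difference of log2 CPM over the 9 libraries, after each gene's own mean was subtracted. It rests on the values that chose the genes and is a description. Among all 11129 other genes tested, the 2 nearest to each of 1297918, 1362558 and 1362447 were the other 2 of these 3. The differences were 0.41 between 1362558 and 1362447, 0.54 between 1297918 and 1362558 and 0.54 between 1297918 and 1362447. The neighbouring pair was thus no more alike than 1362558 and 1362447, which lie in different stretches of the annotation. The next gene with an assigned family was 718112, a member of GH32, a family of invertases and fructan hydrolases, at 0.87 from 1297918 and 0.91 from 1362447. It stood at 1.70, 174 and 87.4 CPM on maltose, pine and aspen. For 1362558 it was 1439081, with a carbohydrate-binding module of family CBM13, at 0.88. The nearest P450 gene outside the 3 was 1468151, at 0.92 to 1.27.

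The genes of lower abundance had no such partners among the P450 genes. Among all genes tested, however, the nearest lay at 0.28 for 1410653 and at 0.30 for 1461314. Both were nearer than any 2 of the 3 genes above were to each other. For 1410653 the nearest genes with a family were 1436992 of GH47, a family of mannosidases that trim N-glycans (0.61), 1430584 of GH30_3 (0.63) and 1453322 of GH5_22 (0.67), although 1436992 was only 113th among all genes. The nearest P450 genes were 1416283 (0.69) and 1381215 (0.71), both of the class CYP2. For 1461314 they were 1424219 of GT1, a glycosyltransferase family (0.40), 1414778 of GH16, a family of glucanases (0.46) and 1462838 of AA3_2 (0.55). The transcript of 1424219 fell from 72.4 CPM on maltose to 4.06 CPM on pine and 5.62 CPM on aspen. The nearest P450 gene to 1461314 was 1439865, at 0.66.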

How the data were processed

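Poly(A) RNA of 9 cultures was sequenced as paired reads. Per the submitters' notes and the study's methods, the authors aligned reads to the genome of this strain by TopHat2, obtained gene counts by HTSeq and scaled them by DESeq (version 1.5 in the notes). The deposited raw counts are whole numbers for 12690 genes. The authors counted both reads of a pair, since 22.2% of counts from 1 to 49 are odd. The counts given here therefore exceed the number of sequenced fragments. The deposited normalized values are a signal made by the authors, equal to the raw counts times 1 constant per library (0.99 to 1.59), for 11202 genes. The authors kept uniquely mapped reads only, so counts of near-identical P450 copies can be too low.

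Here raw counts of 28399534 to 38654866 per library were fitted in R 4.3.3 with edgeR 4.0.16. Genes with a mean count under 5 were left out, TMM factors were 0.835 to 1.27, and 1 quasi-likelihood model with 3 groups was fitted to all 9 libraries (common dispersion 0.0598). The SE was obtained from the fold change and the F statistic of the same test, so it is approximate and restates that test. Pairwise calls use a Benjamini-Hochberg adjusted p under 0.05. Since labels call the 3 samples of a group replicates and the study describes them as independent cultures, p-values measure the spread between cultures. The scripts were tested on simulated data.

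Named besides the 5 genes were, per comparison, the 3 highest and 3 lowest other P450 genes that passed the test without overlap between groups, the 3 most alike genes with a family per member (log2 CPM, prior count 1), and genes up to 2 positions away. Genes 1468151 (between the woods, and as the nearest P450 gene), 1469297, 1361709 and the most alike P450 genes, together with the neighbours without a family and the P450 gene 1362757 as a neighbour, were named after their values were seen. The members and lists were chosen with earlier results of these data known. Positions and spans came from the RefSeq table of assembly Pycco1, which matched 12680 gene numbers. Lists of redox partners and of P450 genes by annotation, and comparisons of protein sequence, were not used here. Alternatives were DESeq2 1.42.0 (size factors and Wald test), 2 other filters, the 6 libraries compared alone, a replicate block, trim length (70 or 78 bases) and library code prefix from the study's library table as terms, limma 3.58.1 on log2(deposited normalized count + 1), and leaving out each library.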

Additional observations from a re-analysis of the deposited data

Results flagged for a closer look

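The fold changes over maltose on pine and on aspen differed by edgeR's test of that difference for 4 of the 5 genes. They also differed for 6 other P450 genes named above. By the same test 15.2% of all genes tested were called higher on pine than on aspen and 15.1% lower. Of the 61 P450 genes, 15 were called higher and 15 lower. In log2 units, pine minus aspen, the difference was 2.946 for 1297918, 2.569 for 1362558, 2.726 for 1362447 and −2.531 for 1410653. It was 1.9 for 1468281, 1.74 for 1438328 and 1.601 for 1439874, and −2.26 for 1362757, −2.003 for 1381215 and −1.302 for 1416283. These are the values of the direct comparison of the woods, because the maltose libraries are common to both fold changes. They are not independent evidence. The 5 genes were chosen from these same libraries, and the 6 others were named because they passed this comparison. With 3 cultures per group no single culture was tested as standing apart.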

How the results depend on the processing

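In 18 alternatives per comparison, the sign of every fold change of the 5 genes stayed as reported. Between pine and aspen, 1297918, 1362558, 1362447 and 1410653 were called in 18 of 18. Their log2 fold changes were 2.49 to 3.17, 2.38 to 2.77, 2.55 to 3.23 and −2.75 to −2.30. The alternatives reuse the libraries from which the genes were chosen, so they show dependence on processing and are not independent evidence. For 1461314 the difference between the woods ran from −1.23 to −0.49 (adjusted p 0.04069 to 0.4625) and was called in 1 of 18, without pine replicate 1 (leave-one-out range −1.23 to −0.55). With trim length as a term, 1362558 on aspen moved to 4.43. With the library code prefix as a term, 9 of all 61 P450 genes rather than 15 were called higher on pine than on aspen. The counts of P450 genes here are over these 61, the 5 chosen genes included. All pine libraries shared 1 prefix that most aspen libraries lacked, so prefix and wood are partly confounded. Over all alternatives 9 to 18 were called higher on pine and 10 to 17 lower, again lowest with that term, where the main numbers were 15 and 15. The cause of these shifts was not tested. Counts against maltose ran from 34 to 36 higher and 19 to 21 lower on pine, and from 33 to 36 and 19 to 22 on aspen. The main numbers were 34 and 19 on pine and 36 and 21 on aspen. Of all genes tested, 29.1% and 28.8% were called on pine and 26.3% and 24.9% on aspen. The 5 genes were chosen by these comparisons, so the counts against maltose are a description. Replicate numbers are shared between groups. Same-numbered libraries correlated at −0.05 to 0.28 and above 0.1 in 4 of 9 pairs, and libraries of other numbers at −0.19 to 0.20. These overlapping ranges do not decide whether same-numbered cultures were handled together. With a replicate block the differences between pine and aspen were 2.90, 2.54, 2.75, −2.55 and −0.94 in the order above, 1461314 last, and 16 P450 genes were called in each direction. Spread moved by less than the reported spread with another prior count or the deposited normalized counts. Likeness was recomputed with the deposited normalized counts only, and the 5 values compared were little changed. Counts of 12 to 63 on wood, in which both reads of a pair were counted, limit what can be said of 1461314.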

Other observations

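Within 20 kb of each other, a distance chosen after the positions were seen, lay 27 of the 61 P450 genes, in 16 neighbouring pairs. On pine against maltose both genes of 7 pairs were called in the same direction and of 5 pairs in opposite directions, and 4 pairs were not both called. On aspen 8 pairs agreed in direction and 8 did not. The agreeing pairs on both woods include 1362558 and 1297918, which were chosen by these comparisons. The share among neighbouring genes in general was not computed, so the numbers are a description. Genes 1362558 and 1297918 were 1 of 2 pairs called in the same direction between the woods. The other was 1438328 and 1395204, 0.994 kb apart (log2 fold changes pine against aspen 1.74 and 1.12), although on both woods 1438328 was above maltose and 1395204 below (2.79 and −1.24 on pine). The closest pair, 1469297 and 1414039, 0.299 kb apart, was called in opposite directions on both woods (2.78 and −2.25 on pine, 3.54 and −2.52 on aspen). Genes 1463698 and 1449439, 0.94 kb apart, were both called higher (3.99 and 3.50 on pine, 5.09 and 4.08 on aspen).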
